A study of Mus musculus with 6 samples.

Results

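Gfap, Vim and Nes encode glial fibrillary acidic protein, vimentin and nestin, the intermediate filament proteins of astrocytes and of neural progenitor cells, and their messenger RNA was followed in the spinal cord of mice that carry SOD1 transgenes. Probe sets were taken as members when the platform annotation gave them exactly 1 gene symbol and that symbol was Gfap, Vim or Nes. The 3 genes, of 8251 with such a probe set, are represented by 5 of 12422 probe sets: 94143_at and 94144_g_at for Gfap, 101046_at for Vim, and 103549_at and 161829_at for Nes. The 6 arrays covered 3 genotypes at 2 ages, with 1 array per genotype and age. G93A-SOD1 mice (strain label B6SJL-G93A-SOD1H at 110 days and B6SJL-G93A-SOD1 at 75 days) carried the G93A form of SOD1, a mutation that causes inherited amyotrophic lateral sclerosis in people. WT-SOD1 mice (no strain label at 110 days, B6SJL-WT-SOD1 transgenic mouse at 75 days) carried the wild-type form, and nontransgenic mice (B6SJL) carried neither. The submitters describe the G93A-SOD1 mice as having tremor and partial paralysis at 110 days and as presymptomatic at 75 days, and the WT-SOD1 mice as without disease at both ages. WT-SOD1 and nontransgenic arrays are therefore called disease-free below. Each array held RNA from 4 pooled spinal cords and was hybridised and scanned 1 time, so no genotype and age has a replicate. The labels give neither the mice's sex nor the transgenes' promoters or copy numbers.

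Intermediate filaments are rope-like polymers that give a cell its mechanical strength. Astrocytes of the adult cord build them mainly from glial fibrillary acidic protein and vimentin. Nestin is the filament protein of neural stem and radial glial cells and is low in most mature astrocytes, where it depends on a partner such as vimentin to enter a filament. When the nervous system is injured, astrocytes enlarge and their filament genes are switched on more strongly, a response called reactive gliosis, for which glial fibrillary acidic protein is the standard marker. Vimentin is also made by endothelium, fibroblasts, microglia and ependymal cells, and nestin by endothelium and pericytes. The cord was measured whole, so more cells of a type and more RNA per cell cannot be told apart in any value below.

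In the GRCm38.p6 assembly Gfap (gene ID 14580) lies on chromosome 11 from 102887336 to 102897200, Vim (gene ID 22352) on chromosome 2 from 13574311 to 13582826, and Nes (gene ID 18008) on chromosome 3 from 87971093 to 87980451. The 3 genes thus lie on 3 chromosomes. Their promoters are shown because 2 of the 3 genes moved together on these arrays and the letters can be set beside that. Each window, taken from RefSeq on that assembly, holds the 250 bases before and the 50 bases from the annotated start of the gene, written 5′ to 3′ on the gene's strand. Capitals mark matches, on either strand, to 5 motifs: the STAT motif TTCNNNGAA, the AP-1 motif TGANTCA, the GC box GGGCGG, the NFI motif TTGGC and the TATA motif TATAA. The Gfap window is chr11:102897151-102897450 on the minus strand, the Vim window chr2:13574061-13574360 on the plus strand and the Nes window chr3:87970843-87971142 on the plus strand.
Gfap: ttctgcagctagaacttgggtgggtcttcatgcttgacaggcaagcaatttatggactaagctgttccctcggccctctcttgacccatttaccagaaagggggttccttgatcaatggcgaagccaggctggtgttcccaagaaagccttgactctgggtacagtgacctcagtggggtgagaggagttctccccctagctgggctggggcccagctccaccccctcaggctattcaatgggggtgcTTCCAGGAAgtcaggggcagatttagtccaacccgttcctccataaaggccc
Vim: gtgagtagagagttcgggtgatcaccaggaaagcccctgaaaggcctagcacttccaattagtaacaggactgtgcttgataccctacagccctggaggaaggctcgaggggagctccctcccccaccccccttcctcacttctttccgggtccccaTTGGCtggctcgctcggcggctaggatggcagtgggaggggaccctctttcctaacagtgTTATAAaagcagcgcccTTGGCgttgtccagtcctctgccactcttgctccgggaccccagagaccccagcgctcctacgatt
Nes: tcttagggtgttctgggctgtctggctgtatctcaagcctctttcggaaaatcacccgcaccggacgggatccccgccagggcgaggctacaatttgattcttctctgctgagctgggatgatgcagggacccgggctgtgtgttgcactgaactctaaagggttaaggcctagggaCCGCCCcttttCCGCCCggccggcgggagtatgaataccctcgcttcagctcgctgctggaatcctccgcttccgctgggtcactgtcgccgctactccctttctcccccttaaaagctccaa

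The 3 windows held different motifs. STAT factors carry signals of interleukin-6 type cytokines, which induce Gfap in astrocyte cultures. The Gfap window held 1 match to the STAT motif, whose first base lies at -2 from the start, and none to the other 4. A STAT match was found in 8.3% of 32851 promoter windows. The Vim window held 2 NFI motifs, at -93 and -16, and overlapping TATA motifs on both strands, at -33 and -32. NFI motifs were found in 46.7% and TATA motifs in 24.9% of all windows. The Nes window held 2 GC boxes on the opposite strand, at -73 and -62, a motif found in 35.7% of windows. No AP-1 match lay in the 3 windows, against 7.81% of all windows. Guanine and cytosine made up 55.7% of the Gfap window, 59.3% of the Vim window and 58.7% of the Nes window. No motif was found in the windows of both Gfap and Nes. A match describes letters only, and factor binding was not measured.

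Sod1, the gene of the transgene, was read as a check of the labels. Its 1 probe set gave intensities of 1716 and 1738 in G93A-SOD1, 1906 and 1583 in WT-SOD1 and 1498 and 1037 in nontransgenic cord at 110 and 75 days, with each transgenic array above both nontransgenic ones. The nontransgenic arrays differed more from each other (1498 and 1037) than the lowest transgenic array did from the higher of them (1583 and 1498). Whether this mouse probe set detects the transgene's RNA was not tested, so the check cannot decide the labels. Median intensities of the arrays lay between 77.7 and 80.9. The mean of 9 bacterial spike-in probe sets was 746 and 645 on the G93A-SOD1 arrays, 1590 and 696 for WT-SOD1 and 850 and 1198 for nontransgenic mice at 110 and 75 days. The WT-SOD1 array at 110 days thus stood highest in spike-in signal. The ratio of the 3′ to the 5′ probe set of beta-actin, a sign of RNA integrity, lay between 1.69 and 2.39, with the G93A-SOD1 arrays inside that range. The same ratio for Gapdh in G93A-SOD1 cord was 1.30 (110 days) and 1.49 (75 days), above the 1.08 to 1.27 of the disease-free arrays, and its part in the Gfap and Nes differences was not tested. Signal over background and the number of arrays limit the precision.

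Gfap was measured by 2 probe sets, and on both of them the G93A-SOD1 arrays were highest. The brighter, 94144_g_at, read 4442 and 2743 in G93A-SOD1 cord at 110 and 75 days, 2206 and 1596 in WT-SOD1 cord, and 1583 and 1617 in nontransgenic cord. Both G93A-SOD1 arrays lay above all 4 disease-free arrays, and the older lay above the younger. Its suffix _g_at marks probes that may match more than 1 transcript. The dimmer, 94143_at, read 507 and 313 in G93A-SOD1 cord at 110 and 75 days, 256 and 218 in WT-SOD1 cord, and 220 and 210 in nontransgenic cord. Here too both G93A-SOD1 arrays lay above all 4 disease-free arrays, with the older above the younger. This order was seen for 2.94% of the 6737 probe sets tested below. Over the 4 disease-free arrays 94144_g_at averaged 1751 ± 304 and 94143_at 226 ± 20.5 (SD, n = 4). On both probe sets the G93A-SOD1 array at 110 days was 1.62 times that at 75 days. The next neighbours in the order, G93A-SOD1 at 75 days and WT-SOD1 at 110 days, were closer: the ratio was 1.24 on 94144_g_at and 1.22 on 94143_at. The highest disease-free array was itself 1.39 and 1.22 times the lowest on these probe sets, so this gap is narrower than the disease-free spread on 94144_g_at and about equal to it on 94143_at. Below WT-SOD1 at 110 days came nontransgenic at 75 days, WT-SOD1 at 75 days and nontransgenic at 110 days on 94144_g_at, each 1.01 times the next.

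Nes was measured by 2 probe sets with different patterns. On 103549_at it read 304 and 192 in G93A-SOD1 cord at 110 and 75 days, 155 and 139 in WT-SOD1 cord, and 127 and 144 in nontransgenic cord. Both G93A-SOD1 arrays again lay above all 4 disease-free arrays, whose mean was 141 ± 11.7 (SD, n = 4), and the older was 1.58 times the younger. That order is the one seen for 2.94% of the probe sets tested below. The G93A-SOD1 array at 75 days was 1.24 times the next one, WT-SOD1 at 110 days, while the disease-free arrays spanned 1.22 times. The second probe set, 161829_at, read 37.1 and 48.8 in G93A-SOD1 cord at 110 and 75 days, 41.8 and 40.7 in WT-SOD1 cord, and 31.8 and 41.0 in nontransgenic cord. Here the G93A-SOD1 array lay inside the disease-free range at 110 days and was highest at 75 days. All its values were under 79.7, the median of all values in the table, and close to the floor of 31 set for the tests (the 25th percentile of all values). It did not pass the filter, which asked for at least 1 array above that median.

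Vim was dim on every array. Its 1 probe set read 40.5 and 39.8 in G93A-SOD1 cord at 110 and 75 days, 40.5 and 40.7 in WT-SOD1 cord, and 36.7 and 42.0 in nontransgenic cord. Both G93A-SOD1 arrays lay inside the range of all 4 disease-free arrays. Within its own age the G93A-SOD1 array was level with WT-SOD1 at 110 days and below both disease-free arrays at 75 days. The highest of the 6 arrays was 1.15 times the lowest, and no neighbours in the order differed by more than 1.085 times. The disease-free mean was 39.98 ± 2.30 (SD, n = 4). With every value under the median of the table, the probe set did not pass the filter and was tested in the fit with no filter alone. Levels of different probe sets are not comparable, since each has its own probes, so the dim reading of Vim gives no order between the genes.

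**Figure D1:**
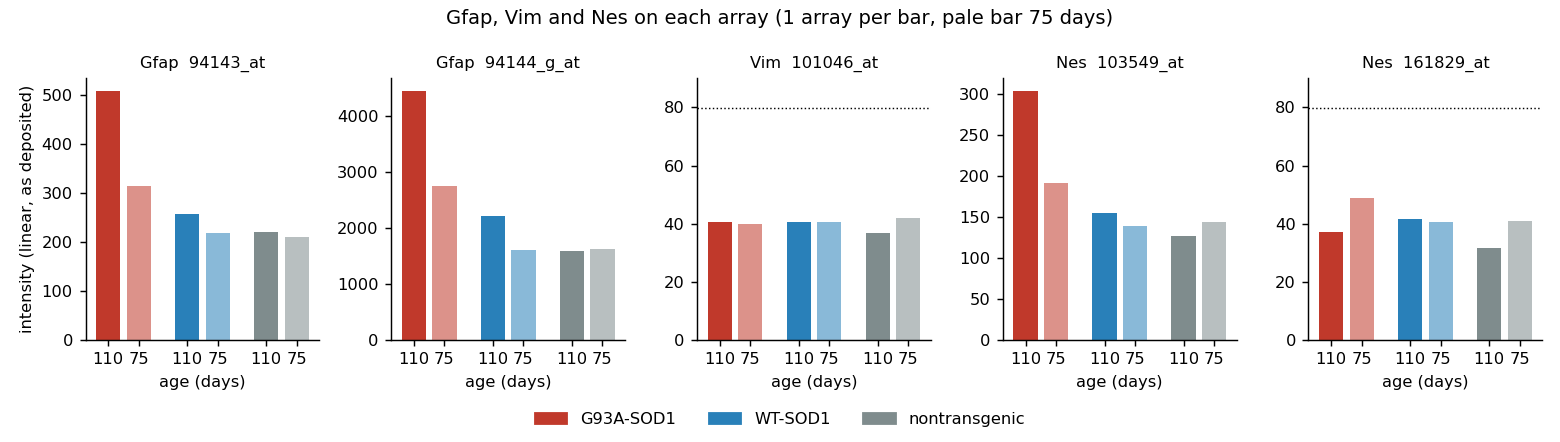
Linear intensity (vertical axes, as deposited) of each probe set on each of the 6 arrays, 1 array per bar, by genotype and age in days; the dotted line in the Vim and 161829_at panels is the median of all values. Both Gfap probe sets and Nes 103549_at are highest on the G93A-SOD1 array at 110 days and next highest at 75 days, while Vim stays between 36.7 and 42.0.

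The Gfap probe sets and Nes 103549_at varied together. Over the 6 arrays the log2 intensities of the Gfap probe sets correlated at Pearson r = 0.989, and Nes 103549_at correlated with them at 0.985 and 0.979. The Vim probe set correlated with these 3 at 0.110 to 0.267 and with the dim Nes probe set at 0.615. The dim Nes probe set spanned 0.62 log2 units over the 6 arrays and correlated with the other Nes probe set at 0.156. These values describe 6 arrays that share their processing and differ in genotype and age, and they carry no test.

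At 110 days, when the G93A-SOD1 mice had symptoms, Gfap and Nes were higher in G93A-SOD1 cord than in disease-free cord. The comparison asked which transcripts differed in the affected cord, by limma over 6737 probe sets with Benjamini-Hochberg adjustment at 0.05. The 3 member probe sets that passed the filter were called, all higher. In this comparison 1.51% of tested probe sets were called in either direction and 1.38% were called higher, 93 probe sets in all. Gfap was 2.38-fold higher on 94144_g_at (log2 difference 1.25 ± 0.20 SE, adjusted p = 0.0304) and 2.14-fold higher on 94143_at (1.10 ± 0.15 SE, adjusted p = 0.0145). The 95% intervals of the fold were 1.71 to 3.31 and 1.68 to 2.72. Nes was 2.16-fold higher on 103549_at (1.11 ± 0.16 SE, adjusted p = 0.0190), with an interval of 1.67 to 2.81. Ranked by log2 difference, these probe sets stood at places 52, 73 and 68 of 6737. In either direction 102 probe sets were called. Without either 75-day disease-free array the 110-day differences stay the same by design, as only the spread changes. Without nontransgenic at 110 days 1 array is set against 1. The log2 differences were then 1.01, 0.99 and 0.97 for 94144_g_at, 94143_at and 103549_at. Without WT-SOD1 at 110 days they were 1.49, 1.20 and 1.26.

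The size of the 110-day difference depended on which disease-free array it was set against. Against WT-SOD1 the G93A-SOD1 array was 2.01, 1.98 and 1.96 times as high for 94144_g_at, 94143_at and 103549_at. Against the nontransgenic array it was 2.81, 2.30 and 2.39 times as high. The G93A-SOD1 array at 110 days lay above all 4 disease-free arrays for 16.9% of tested probe sets, so that position alone is common. The p-values rest on the spread between the WT-SOD1 and nontransgenic array of each age, and the lone G93A-SOD1 array is assumed to vary like them. With no filter on level, none of the 3 calls held. The adjusted p was then 0.516, 0.279 and 0.368 for 94144_g_at, 94143_at and 103549_at, the highest of 11 alternatives. With the floor at the 40th percentile 94144_g_at and 103549_at lost theirs (adjusted p = 0.101 and 0.0573).

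The dim probe sets were tested in the same model fitted with no filter, over 12422 probe sets, where neither was called at 110 days (adjusted p = 1 for each). For Vim the log2 difference at 110 days was 0.07, with a 95% interval of -0.24 to 0.38, or 0.848 to 1.30 times. For Nes 161829_at it was 0.03, with an interval of -0.78 to 0.84. Both intervals include 0. The estimate of 2.16-fold (log2 1.11) from 103549_at lies outside the interval of the dim Nes probe set, whose values sit near the floor.

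At 75 days, before symptoms, no probe set of the 6737 that passed the filter was called. The called share was 0% of 6737 in limma, with 664 at an unadjusted p under 0.05 and a smallest adjusted p of 0.178. With no filter, 48 of 12422 probe sets were called higher and 2 lower, with no member among them. Gfap read 1.71-fold of disease-free cord on 94144_g_at (log2 difference 0.77 ± 0.20 SE, adjusted p = 0.460) and 1.47-fold on 94143_at (0.55 ± 0.15 SE, adjusted p = 0.460). Nes 103549_at read 1.36-fold (0.44 ± 0.16 SE, adjusted p = 0.495). These were places 13, 46 and 115 of 6737 in the ranking by log2 difference. The 2 ratios behind each value were close: for 94144_g_at the G93A-SOD1 array was 1.72 times the WT-SOD1 array and 1.70 times the nontransgenic array, for 94143_at 1.44 and 1.49 times, and for 103549_at 1.38 and 1.33 times. At this age the G93A-SOD1 array lay above all 4 disease-free arrays for 23.8% of tested probe sets. Both G93A-SOD1 arrays above all 4 disease-free arrays, with the older above the younger, was seen for 2.94% of tested probe sets, and for all 3 tested member probe sets. In the fit with no filter Vim stood at -0.05 with an interval of -0.36 to 0.26 (adjusted p = 1), and Nes 161829_at at 0.26 with an interval of -0.55 to 1.07 (adjusted p = 0.930). With 1 array left out the spread changes: Gfap 94144_g_at was called at 75 days without the nontransgenic array of 110 days (adjusted p = 0.0420) or the WT-SOD1 array of 110 days (adjusted p = 0.0290), and over 11 alternatives its adjusted p ran up to 0.626. Over all tested probe sets, 13 were called at 75 days without nontransgenic at 75 days, 41 without nontransgenic at 110 days, 38 without WT-SOD1 at 75 days and 128 without WT-SOD1 at 110 days.

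Relative to other probe sets called at 110 days, the 75-day values of Gfap were high. Of the 93 probe sets called higher at 110 days, 94144_g_at had the highest log2 difference at 75 days, 94143_at the fourth highest and Nes 103549_at the eighth highest. The range over the 93 was -0.30 to 0.77, with a median of 0.15, and 68 lay above 0. S100a6, encoding a calcium-binding protein, was the second highest at 0.73 and Cebpd, encoding a transcription factor of acute inflammation, the third highest at 0.62, both of them in the list of reactive astrocyte genes. The 75-day log2 difference was 61.8% of the 110-day one for 94144_g_at, 50.4% for 94143_at and 39.4% for 103549_at. For S100a6 the log2 differences were 2.92 at 110 days and 0.73 at 75 days, and for Cebpd 2.29 at 110 days and 0.62 at 75 days. This order is a description with no test, and no 75-day value passed the threshold.

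**Figure D2:**
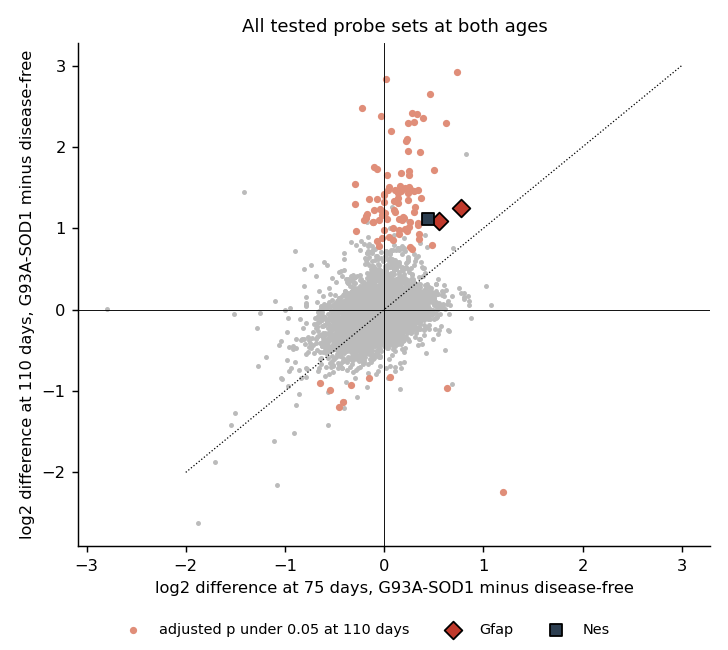
Log2 difference of G93A-SOD1 from disease-free cord at 75 days (horizontal axis) and at 110 days (vertical axis) for the 6737 tested probe sets, each a point, with those called at 110 days in light red, Gfap as red diamonds and Nes 103549_at as a dark square; equal values would lie on the dotted line. At 75 days Gfap at 0.77 and 0.55 and Nes at 0.44 lie on the right edge of the called points, all 3 above the dotted line.

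The change of the difference between the ages was tested directly and was not called for any member. In this contrast 0.416% of tested probe sets were called, 28 in all. Leaving out 1 disease-free array gave 53 (WT-SOD1 75 days), 60 (nontransgenic 75 days), 85 (WT-SOD1 110 days) or 120 (nontransgenic 110 days), with no member among them. The log2 change was 0.48 for 94144_g_at (adjusted p = 0.973), with a 95% interval of -0.20 to 1.15. It was 0.54 for 94143_at (adjusted p = 0.742), with an interval of 0.05 to 1.04 before adjustment, and 0.67 for 103549_at (adjusted p = 0.627), with an interval of 0.14 to 1.21. A larger difference at 110 than at 75 days was thus not established for Gfap or Nes. For Vim the change was 0.13 and for Nes 161829_at -0.23, with intervals that include 0.

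In disease-free cord the filament genes were not called between the ages. Of tested probe sets 0.0148%, which is 1 probe set, were called, and 2 to 19 with 1 array left out (19 without WT-SOD1 at 110 days). The log2 difference of 110 over 75 days was 0.22 for 94144_g_at, 0.15 for 94143_at and -0.01 for Nes 103549_at (adjusted p = 0.998 each), and the interval of Gfap 94144_g_at was -0.17 to 0.61. WT-SOD1 and nontransgenic mice differed in sign here for 2 of the 3 probe sets. For 94144_g_at the 110-day array was 1.38 times the 75-day array in WT-SOD1 mice and 0.979 times in nontransgenic mice. For 103549_at these ratios were 1.12 and 0.883, and for 94143_at 1.18 and 1.05.

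WT-SOD1 and nontransgenic cord were compared to see what a SOD1 transgene without disease does to these genes, and no member was called. Of tested probe sets 0.104% were called. The log2 difference of WT-SOD1 over nontransgenic was 0.23 for 94144_g_at, 0.13 for 94143_at and 0.12 for Nes 103549_at (adjusted p = 1 each). The intervals were -0.15 to 0.61, -0.24 to 0.51 and -0.26 to 0.50. At 110 days WT-SOD1 was 1.39, 1.16 and 1.22 times nontransgenic for these probe sets, and at 75 days 0.987, 1.04 and 0.967 times. The WT-SOD1 array at 110 days was the highest disease-free array for all 3. It also had the highest spike-in signal, and the summed intensity of 7 cerebellum markers on it was 2846, against 1493 on the nontransgenic array of that age. The part of these in the Gfap and Nes readings was not tested. The test uses 1 residual degree of freedom and 1 spread pooled over all probe sets.

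**Figure D3:**
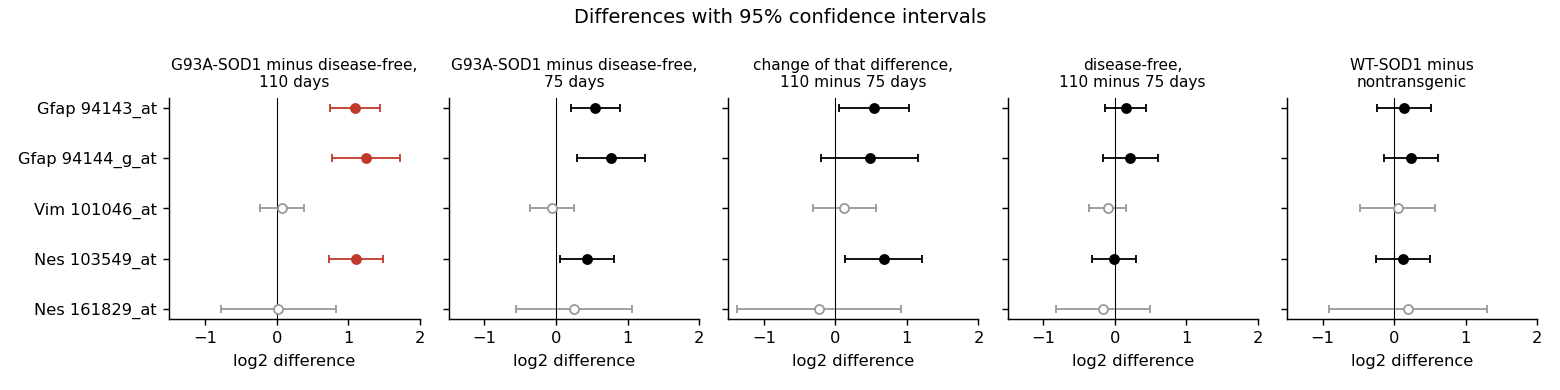
Log2 differences (horizontal axes) of the 5 probe sets in the 5 comparisons, with 95% intervals as bars; red points passed the limma test at an adjusted p under 0.05, black points were tested and did not, and open points come from a fit with no filter because the probe set did not pass the filter. The intervals of Gfap and of Nes 103549_at lie above 0.7 at 110 days.

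None of the other intermediate filament genes was called higher at 110 days. Over all 6737 tested probe sets 93 were called higher and 9 lower. Of 8 tested genes of this list (14 of 17 were on the array) 0 rose, 1 fell and 1 lay above 0. Their median log2 difference was -0.35, against -0.02 over all tested probe sets. The one called was Nefm, the medium neurofilament subunit of neurons, which fell to 571 on the G93A-SOD1 array at 110 days, against 986 on the WT-SOD1 and 1035 on the nontransgenic array (log2 difference -0.82 ± 0.13 SE, adjusted p = 0.0301). At 75 days Nefm read 955 on the G93A-SOD1 array, against 900 on the WT-SOD1 and 940 on the nontransgenic array. The heavy subunit gene Nefh stood at -0.72, the neuronal filament gene Ina, encoding alpha-internexin, at -0.57 and the light subunit gene Nefl at -0.53, none of them past the threshold (adjusted p = 0.112, 0.130 and 0.268). The gene above 0 was Lmna, encoding the nuclear lamins A and C, at 0.60 (adjusted p = 0.268). Des, encoding the muscle filament protein desmin, stood at -0.01, and Krt18, Krt19 and Krt7, keratin genes of epithelia, were at the floor on every array. Nefh, Ina, Nefl, Lmna and the keratins were picked from the list after their values were seen. Without the WT-SOD1 array of 110 days 4 of the 8 fell, Ina, Nefh, Nefm and Nefl, and 0 rose, while without each of the other 3 disease-free arrays Nefm alone fell.

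Genes for proteins that link, fold or modify intermediate filaments showed no call. The share called at 110 days over all tested probe sets was 1.51%. Of 17 tested (23 of 28 on the array) 0 passed at 110 days, 10 lay above 0, and the median was 0.03. The values farthest from 0 were those of Ywhaz, encoding a 14-3-3 protein, at -0.42 (adjusted p = 0.570), and Padi2, whose enzyme citrullinates glial fibrillary acidic protein and other substrates, at 0.37 (adjusted p = 0.563). At 75 days the median was -0.14. Without the WT-SOD1 array of 110 days Ywhaz fell, 1 of 16 then tested. Hspb1, a small heat shock protein gene, Aurka, Casp6 and Mif were at the floor on every array.

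Over all tested probe sets 1.38% were called higher at 110 days. Of 12 tested genes known from reactive astrocytes (20 of 24 on the array) 6 rose at 110 days and 0 fell. All 12 lay above 0, and the median was 0.97. S100a6 reached 1086 on the G93A-SOD1 array, against 184 on the WT-SOD1 and 112 on the nontransgenic array (7.56-fold, log2 difference 2.92 ± 0.27 SE, adjusted p = 0.0036). The protease inhibitor gene Serpina3n reached 2361, against 422 and 334 (6.29-fold, adjusted p = 0.00112). Cebpd rose 4.89-fold (adjusted p = 0.00343) and Emp1, encoding an epithelial membrane protein, 3.37-fold (adjusted p = 0.00185). Each of these 4 rose by a larger factor than Gfap at the same age. At 75 days the list's median was 0.11 with 0 calls, and its highest members were S100a6 at 0.73 and Cebpd at 0.62. Gfap stood at 0.77 on 94144_g_at and at 0.55 on 94143_at at that age. In the change between ages 3 of the 12 were called higher, while 0.416% of all tested probe sets were called in either direction. With 1 disease-free array left out, 7 or 8 of the 12 were called higher at 110 days (8 without WT-SOD1 at 110 days) and 0 lower. Emp1 and Lgals3, both among the 6, passed the filter only through the G93A-SOD1 array at 110 days. Emp1 read 190 there, against 52.4 to 59.1 on the other arrays, and Lgals3 82.8, against 12.6 to 16.4. Being tested at all thus depended on the high value behind their calls. Several genes of this list are also expressed by microglia and macrophages, among them Lgals3 and Cd14. Cp, Cxcl10, Hspb1, Ptx3 and Fgf2 were at the floor on every array, so they could not be read.

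Genes of the signals that induce glial filament genes were not called, where 1.51% of all tested probe sets were called at 110 days. Of 17 tested (22 of 26 on the array) 0 passed at 110 days, 11 lay above 0 and the median was 0.06. Fos, an immediate early gene and AP-1 subunit, stood farthest from 0 at 0.78 (adjusted p = 0.555), with 190 on the G93A-SOD1 array, against 81.5 on the WT-SOD1 and 150 on the nontransgenic array. Socs3, a feedback inhibitor that STAT3 switches on, stood at 0.54 (adjusted p = 0.246), with 105 on the G93A-SOD1 array, against 79.9 and 65.5. At 75 days Socs3 stood at -0.11. Without the WT-SOD1 array of 110 days 2 of the 17 were called, Socs3 higher and Lifr, the leukemia inhibitory factor receptor gene, lower, and 0 without each of the other 3. Il6, encoding interleukin-6, was at the floor on every array.

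Nes was also set beside genes of neural progenitors and of dividing cells. Over all tested probe sets 1.38% were called higher at 110 days. Of 9 tested progenitor and radial glia genes (14 of 15 on the array) 1 was called higher and 0 lower. Of the 9 genes 7 lay above 0 and the median was 0.05. The called gene was Fabp7, the brain lipid-binding protein of radial glia and astrocytes, which reached 1177 on the G93A-SOD1 array, against 456 on the WT-SOD1 and 403 on the nontransgenic array (2.74-fold, log2 difference 1.46 ± 0.20 SE, adjusted p = 0.0166). Sox2, a transcription factor that maintains progenitors, stood at 0.05, and Hes1, a target of Notch, at -0.10 (chosen after their values were seen). Without the WT-SOD1 array of 110 days 3 of the 9 rose, Fabp7, Dbi and Id3. Of 8 cell cycle genes (9 of 10 on the array) 0 were called. All 8 lay above 0, and their median was 0.27, against -0.02 over all tested probe sets. The farthest were Ccnd1, encoding cyclin D1, at 0.91 (adjusted p = 0.246) and Mcm3, a subunit of the replicative helicase, at 0.40 (adjusted p = 0.307). Ccnd1 was called higher in 3 of the 4 fits with 1 disease-free array left out, and not without WT-SOD1 at 110 days.

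Markers of astrocytes outside the filament genes were counted as well. Over all tested probe sets 1.38% were called higher at 110 days. Of 13 tested (13 of 18 on the array) 2 were called higher, Fabp7 and Clu, and 0 lower. Clu, encoding the secreted chaperone clusterin, reached 1795 on the G93A-SOD1 array, against 1031 on the WT-SOD1 and 977 on the nontransgenic array (1.79-fold, adjusted p = 0.0269). In all 8 of 13 lay above 0 and the median was 0.17. Aqp4, the water channel of astrocyte end-feet, stood at 1.09 (adjusted p = 0.132), while Slc1a2, the main glutamate transporter, stood at 0.25, Gja1, a gap junction gene, at -0.03, and S100b at -0.23 (chosen after their values were seen). The summed intensity of the 13 markers was 13160 at 110 days and 9982 at 75 days on the G93A-SOD1 arrays, against 10430 to 11490 on the disease-free arrays. Their mean log2 intensity was 9.316 and 8.984, against 8.982 to 9.058, so at 75 days it lay inside the disease-free range. At 75 days, where Gfap stood at 0.77 on 94144_g_at and 0.55 on 94143_at, the median of these markers was 0.04. The highest, Fabp7, stood at 0.30. At 110 days Aqp4 was also called higher in 3 of the 4 fits with 1 disease-free array left out, where the list had 2 to 4 higher calls (4 without WT-SOD1 at 110 days, with Slc4a4) and Gjb6 was called lower without nontransgenic at 110 days.

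Markers of other cells moved beside Gfap and Nes at 110 days. Of 10 tested microglia markers (13 on the array) 9 were called higher, with a median of 2.19, and their summed intensity was 7029 on the G93A-SOD1 array at 110 days and 1799 at 75 days, against 1569 to 1843 on the disease-free arrays. The share called higher at 110 days over all tested probe sets was 1.38%. Ptprc and Fcer1g were at the floor on every array. The largest differences were those of Lyz2 at 7.15-fold, Tyrobp at 5.30-fold, C1qb at 5.13-fold and Cd68 at 4.95-fold. Lyz2 passed the filter only through the G93A-SOD1 array at 110 days (290, against 31.4 to 48.7 on the other arrays). The count was 9 without each disease-free array in turn. At 75 days 0 were called and the median was 0.23. Microglia do not normally make glial fibrillary acidic protein, and the part of these cells in the Nes and Vim readings was not tested.

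Nestin and vimentin are also made by vessel wall and meningeal cells, so these were counted too. Of 5 tested endothelium markers 0 were called, with a median of -0.08 and sums of 1296 and 1324 in G93A-SOD1 cord at 110 and 75 days, against 1294 to 1473 on the disease-free arrays. The farthest from 0 were Slc2a1 at -0.39 and Cldn5 at -0.29, and Tek was at the floor on every array. Of 2 mural markers 0 were called, with Tagln at 0.58 and Des at -0.01, and Pdgfrb and Myh11 at the floor on every array. Tagln passed the filter only through the G93A-SOD1 array at 110 days (88.5, against 54.6 to 68.8 on the other arrays). Of 7 fibroblast and meninges markers 2 were called higher, Igfbp2 at 3.19-fold and Fmod at 2.03-fold, with a median of 0.19. The share called higher over all tested probe sets was 1.38%. The 9 of these markers on the array summed to 4591 and 4759 in G93A-SOD1 cord at 110 and 75 days, against 4525 to 5033. Their mean log2 intensity, which the brightest genes weigh on less, was 7.852 and 7.578. At 110 days it thus lay above the 7.416 to 7.600 of the disease-free arrays. Fmod, encoding the collagen-binding proteoglycan fibromodulin, was also among the genes most like Nes over the arrays. Without the WT-SOD1 array of 110 days Tagln and Fn1 were called higher as well. The part of these cells was not tested.

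The remaining lists held 1 call. Over all 6737 tested probe sets 93 were called higher and 9 lower at 110 days. Of 5 tested motor neuron markers 1 was called lower, Nefm, with a median of -0.53, and Isl1, a motor neuron transcription factor gene, was at the floor on every array. None of 3 Schwann cell, 5 ependyma, 3 muscle, 6 oligodendrocyte or 6 cerebellum markers was called. Their values farthest from 0 were Sox10 at 0.20 and Dhh at 0.08, Rarres2 at 0.70 and Mia at 0.66, Acta1 at 1.44 and Myl1 at 0.42, Mal at -0.29 and Ugt8a at -0.28, and Car8 at -2.15 and Gabra6 at -1.87. The cerebellum markers had a median of -1.42 and summed to 879 and 811 in G93A-SOD1 cord at 110 and 75 days, to 2846 and 1099 in WT-SOD1 cord and to 1493 and 2371 in nontransgenic cord. The part of these differences in the filament readings was not tested. An alternative fit held a term that marked the disease-free array with the higher spike-in signal of each age. These were WT-SOD1 at 110 days and nontransgenic at 75 days. The measured spike-in levels did not enter that fit, so it is no adjustment for them. The 3 calls of Gfap and Nes at 110 days held there. With 1 array left out, Nefh and Nefl (without WT-SOD1 at 110 days), Rarres2 and Mia (the same array), Rarres2 (nontransgenic at 110 days), Acta1 and 5 of the 6 cerebellum markers (either 75-day array) also passed.

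**Figure D4:**
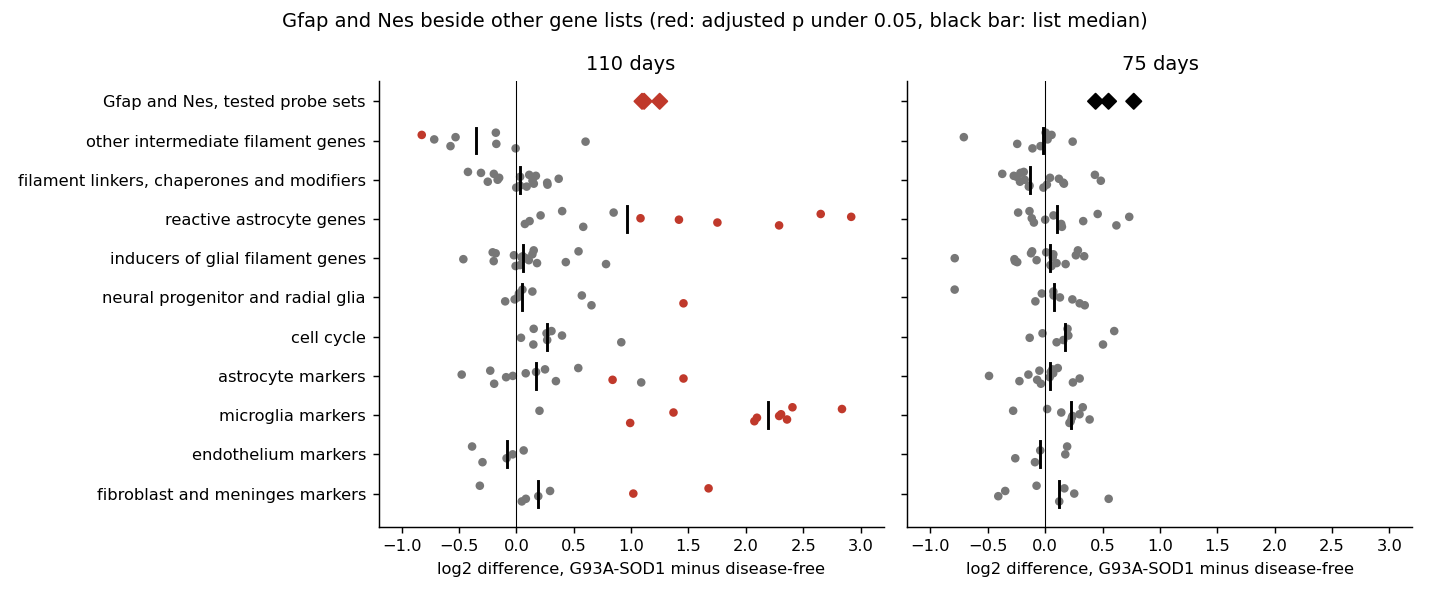
Log2 difference of G93A-SOD1 from disease-free cord (horizontal axes) at 110 days on the left and 75 days on the right, 1 point per gene of a list, diamonds for the tested Gfap and Nes probe sets, red for an adjusted p under 0.05 and a black bar for each list's median. At 110 days the median was 2.19 for microglia markers, 0.97 for reactive astrocyte genes and -0.35 for other intermediate filament genes; at 75 days no list held a call.

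The genes whose pattern over the 6 arrays was most like that of Gfap and Nes overlapped. Likeness was Pearson's r of log2 intensity over the 6 arrays, among 1674 tested probe sets with a range of at least 0.5 log2 units, standing for 1522 genes, and has no test. Most like Gfap 94144_g_at were Ifitm3 (0.983), an interferon-induced membrane protein gene, Nes itself (0.979), Il17ra (0.973), the interleukin-17 receptor, Selplg (0.968), a ligand of selectins on leukocytes, and Tagln2 (0.967), an actin-binding protein gene. Most like Nes 103549_at were Tagln2 (0.996), Ifitm3 (0.993), Cd14 (0.992), a coreceptor for bacterial lipopolysaccharide, Cebpa (0.991), a transcription factor of myeloid cells, and Fmod (0.990). Ifitm3 and Tagln2 stood in both groups. Il17ra passed the filter only through the G93A-SOD1 array at 110 days (86.9, against 56.7 to 67.9 on the other arrays). Its place among the genes compared thus depended on the array where Gfap was highest.

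Ifitm3 read 296 and 210 in G93A-SOD1 cord at 110 and 75 days, 176 and 161 in WT-SOD1 cord, and 140 and 154 in nontransgenic cord. Tagln2 read 501 and 356 in G93A-SOD1 cord at 110 and 75 days, 325 and 303 in WT-SOD1 cord, and 286 and 311 in nontransgenic cord. Both had the G93A-SOD1 array at 110 days on top and the one at 75 days next. At 110 days Ifitm3 was 1.89-fold (adjusted p = 0.0576) and Tagln2 1.64-fold (adjusted p = 0.0779) of disease-free cord, neither past the threshold, while Cebpa was 1.71-fold (adjusted p = 0.0478) and Fmod 2.03-fold (adjusted p = 0.0166) higher. Most like Vim were Ctrl (0.950), Pik3r1 (0.899), Casp9 (0.895), 6430706D22Rik (0.855) and Cox6a2 (0.842), but Vim itself spans only 0.20 log2 units over the 6 arrays.

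**Figure D5:**
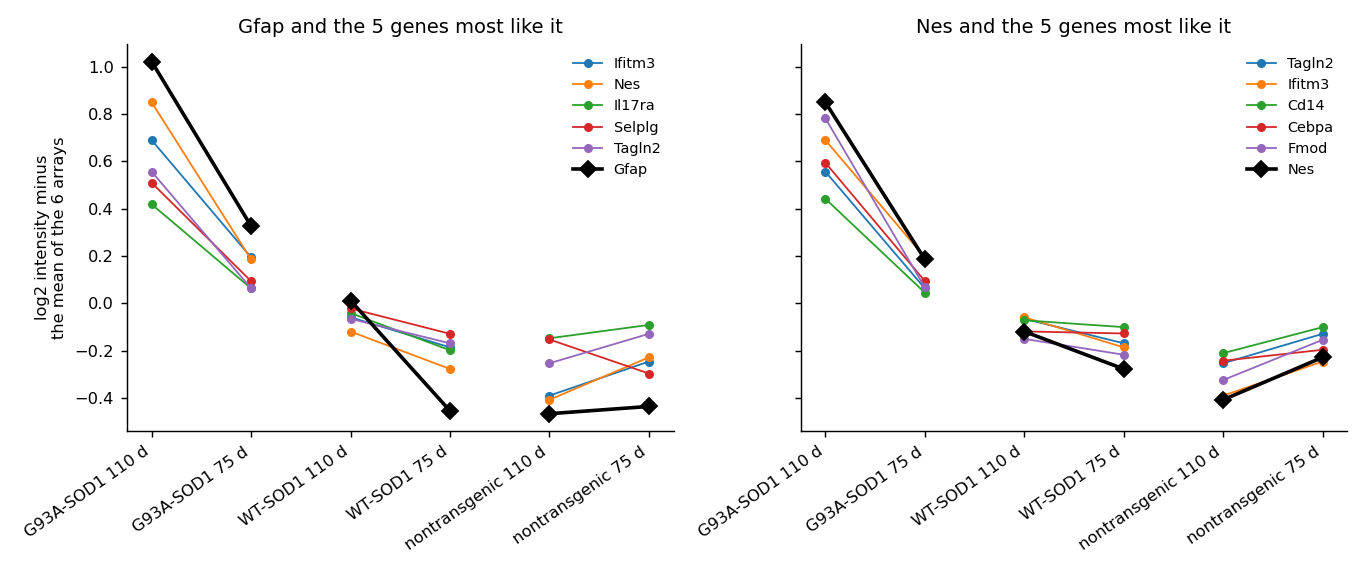
Log2 intensity minus the mean of the 6 arrays (vertical axis) for Gfap 94144_g_at on the left and Nes 103549_at on the right, drawn in black with diamonds, beside the 5 genes with the highest Pearson r; each line joins the 110-day and the 75-day array of 1 genotype. At each age the G93A-SOD1 array lies on top for every gene drawn, and the likeness runs from 0.967 to 0.983 for Gfap and from 0.990 to 0.996 for Nes.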

How the data were processed

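The deposited values are linear intensities in 12488 rows, from biotin-labelled cRNA of 4 pooled cords an array, per the labels' protocols. The labels do not say how the authors summarised probes or scaled arrays. After leaving out 66 control rows, a floor at the 25th percentile of all values (31) was set and intensities were put on the log2 scale with no further scaling. The filter kept the 6737 probe sets that exceeded the pooled median of 79.66 on 1 array or more. They were fitted in limma 3.58.1 (R 4.3.3), with Benjamini-Hochberg adjustment over all of them at 0.05. The model held 1 mean for each G93A-SOD1 array and 1 for the disease-free arrays of each age (residual degrees of freedom 2, prior 5.13, prior SD 0.124). WT-SOD1 against nontransgenic was fitted on 4 arrays and adjusted for age (residual degrees of freedom 1, prior infinite, pooled SD 0.193). No group has a replicate, so p-values reflect how WT-SOD1 and nontransgenic arrays differ, not animals of 1 group.

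The members and gene lists were chosen with earlier results of these data known. Named genes are every member probe set, from each list up to 4 called at 110 days by largest log2 difference or otherwise the 2 farthest from 0, and the 5 genes most like each member; other list genes named were chosen after their values were seen. The probe set with the highest mean represents a gene. By the platform annotation 10833 probe sets had 1 symbol, 396 several and 1193 none. All 3 genes matched RefSeq's promoter table (GRCm38.p6). Alternatives were array scaling, the floor, the filter, a spike-in term and leaving out each disease-free array. For the gene lists the last was an alternative chosen after seeing the data. The spike-in term marked nontransgenic at 75 days and WT-SOD1 at 110 days and did not use the measured levels.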

Additional observations from a re-analysis of the deposited data

How the results depend on the processing

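The differences of Gfap and Nes 103549_at at 110 days stayed above 0 in all 11 alternatives. The 3 calls held with quantile normalization, the floor at the 10th percentile, the filter on the mean level and the spike-in term. Leaving out a 75-day disease-free array changed only the spread of this comparison. Leaving out a 110-day disease-free array left 1 array against 1. Calls were lost at the same or nearly the same log2 differences with arrays scaled to 1 median for Gfap 94144_g_at (1.2425, adjusted p = 0.0603, range over alternatives 5.2e-05 to 0.516), with the floor at the 40th percentile for 94144_g_at (1.2491) and Nes 103549_at (1.1133), and with no filter for 94143_at (1.0953), 94144_g_at (1.2491) and 103549_at (1.1133). At 75 days Gfap 94144_g_at was called higher without the nontransgenic array of 110 days (0.7717, adjusted p = 0.0420) or without the WT-SOD1 array of 110 days (adjusted p = 0.0290), and its difference lay between 0.7624 and 0.7809 with 1 array left out.

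The number of calls moved more. With arrays scaled to 1 median it was 2 for the change between ages and 0 for WT-SOD1. With the floor at the 40th percentile it was 66 at 110 days, 3 for the change and 0 for WT-SOD1. With no filter it was 42 at 110 days, 50 at 75 days, 76 for the change, 0 for age and 0 for WT-SOD1. The filter on the mean level gave 16 for the change. The spike-in term gave 266 at 110 days, 1 at 75 days, 90 for the change and 6 for age. With 1 disease-free array left out the counts ran between 146 and 595 at 110 days (595 without WT-SOD1 110 days, 146 without nontransgenic 75 days, against 102 with all arrays), between 13 and 128 at 75 days, between 53 and 120 for the change and between 2 and 19 for age. With 1 disease-free array left out, the spread comes from the disease-free pair of the other age alone. The part of this in the shifts was not tested.

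Small differences turned sign. For age in disease-free cord Nes 103549_at was 0.0117 with arrays scaled to 1 median and between -0.1549 and 0.1337 with 1 array left out, and Gfap 94144_g_at between -0.0214 and 0.4571. WT-SOD1 minus nontransgenic, with 1 array left out and no test, lay between -0.0185 and 0.4785 for 94144_g_at and between -0.0491 and 0.2886 for 103549_at. No fit with a replicate block was possible because each genotype had 1 array at each age; WT-SOD1 against nontransgenic was adjusted for age. Signal near the floor limits Vim and Nes 161829_at, which were tested with no filter and not called in any of the 5 comparisons there.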
